A study of Mus musculus with 6 samples.

Results

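The Id genes and the genes of bone morphogenetic protein (BMP) signaling were examined in thymic epithelial cells (TECs). The 10 genes are *Id1*, *Id2*, *Id3*, *Id4*, *Fst*, *Bmp2*, *Bmp4*, *Bmp7*, *Bmpr1a* and *Bmpr2*, out of 30176 genes measured. Each is represented by 1 probe set, so no choice between probe sets was needed. The genes were picked by name with earlier results of these arrays known, and 4 of them (*Id1*, *Id3*, *Fst* and *Bmpr2*) are listed by the study as regulated on the same arrays. The differences below therefore describe these genes and are not independent evidence of a pathway change, and their p-values, adjusted over all genes, stand as part of that description.

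TECs were sorted as CD45-negative EpCAM+ cells 7 days after tamoxifen. The group labelled KO holds 3 arrays of socs3fl/fl mice with act cre ER, named Δ*socs3* in the study, and the group labelled WT holds 3 arrays of socs3fl/fl mice without Cre. All mice carried floxed *Socs3* alleles and were treated with tamoxifen, and in the KO mice Cre was driven by the ubiquitous β-actin promoter, so deletion was not limited to TECs. Neither the age of the mice nor any pooling of animals is given in the sources used here. The study calls the 3 samples of a group independent, and the p-values measure the spread between them.

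BMP ligands bind type I and type II serine/threonine kinase receptors at the cell surface. The active receptors phosphorylate SMAD1, SMAD5 and SMAD9, which enter the nucleus with SMAD4 and switch on target genes, and the Id genes are the classical ones. Id proteins have a helix-loop-helix domain but no DNA-binding region, and they hold E proteins away from DNA. Follistatin, the product of *Fst*, is a secreted protein that binds activins and several BMPs. In the thymus, BMP4 from the stroma is known to support TECs.

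The targeted gene did not separate the arrays as the labels would have it. *Socs3* had log2 signals of 8.55, 8.14 and 8.39 on arrays labelled KO, against 8.00, 8.25 and 7.88 on arrays labelled WT. The groups overlapped, the mean was 0.32 higher on arrays labelled KO (standard error 0.16, adjusted p = 0.284 from limma), and both means lay below the background level defined next. Which exons the probe set covers is not given in the sources used here. Groups are therefore called by their labels throughout, and every difference is KO minus WT as labelled. For *Id1*, *Id3*, *Fst* and *Bmpr2* this direction is opposite to the one the study gives, and the same holds for *Il6st*, *Osmr*, *Aire*, *Cd80* and *Cd40*, described further on. As measured, the signal ratio of WT over KO was 3.98 for *Id1*, 2.94 for *Id3*, 3.32 for *Fst* and 2.24 for *Bmpr2*. Each ratio lies close to, and a little above, the fold change that the study lists for the gene as up-regulated in Δ*socs3* TECs. The study also describes *Socs3* mRNA as reduced in Δ*socs3* TECs. Whether the KO and WT labels of these arrays are exchanged cannot be told here, and if they are, every sign given here turns round.

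Signals are log2 values of 1 probe set per gene after each array was shifted to a common median, and no gene's level is set against another's. A signal is called dim where it lies below 10.22, a level that 95% of the negative control probe sets do not pass. The array labelled KO replicate 2 stood apart. Its spiked-in poly-A controls averaged 6.66, against 8.20 to 8.49 on the other 5 arrays, and its values over genes had an SD of 2.33, against 2.61 to 2.67. Among the 4969 genes that are not dim in at least 1 group, the median difference was -0.36 (-0.18 without that array), while over all genes it was -0.05. Bright genes as a whole thus read lower on arrays labelled KO. Values without this array or after another scaling are given for members and, in part, for other genes. In these bulk samples fewer cells of a type and less RNA per cell cannot be told apart.

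*Id1*, *Id3* and *Fst* were lower on arrays labelled KO, with differences of -1.99, -1.56 and -1.73 log2 units. *Bmpr2*, *Bmp7* and *Bmpr1a* had negative differences of about 1 log2 unit that did not pass the test. *Id2*, *Bmp4* and *Id4* differed less, and *Bmp2* was the only member with a positive difference. At an adjusted p under 0.05 over all genes (limma), 3 of the 10 members were lower and none was higher, where 1.18% of all genes tested were lower and 0.517% higher. The median difference of the members was -0.85. In 9 of the 10 members every array labelled KO lay below every array labelled WT. Such a split was found in 26.5% of all genes, and in 49.9% of the genes that are not dim in at least 1 group. With 3 arrays a group the smallest p of an exact permutation test is 0.1 (2-sided), which these 9 genes reached, and *Bmp2* had 0.3.

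**Figure D1:**
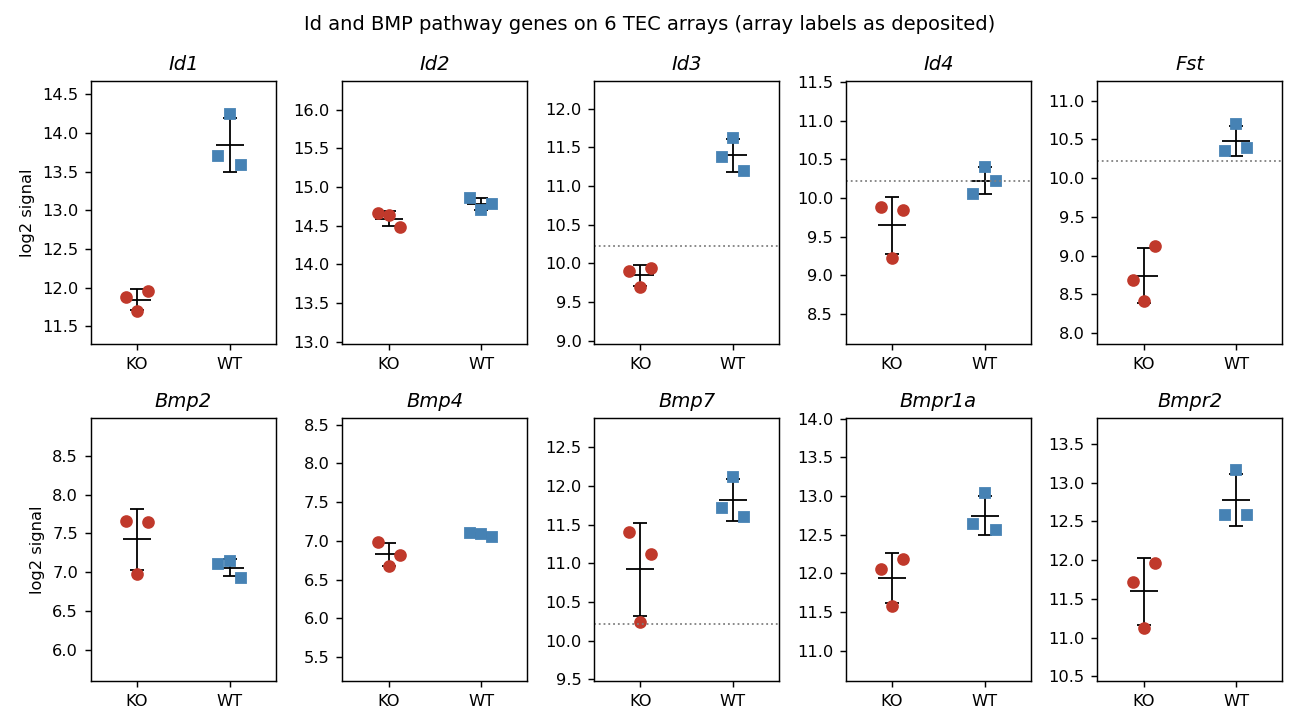
Log2 signal of the 10 genes on each array, with arrays labelled KO (red circles) left of arrays labelled WT (blue squares). Bars give mean ± SD (n = 3), the dotted line is the background level of 10.22 where it falls in the panel, and all panels span the same number of log2 units. The gap between the groups is widest as plotted for *Id1*, *Fst* and *Id3*, of which *Fst* and *Id3* lie below the background line on arrays labelled KO, and the lowest KO point is replicate 2 in every panel except *Id2*.

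Among the Id genes, *Id1* had the widest gap as measured, but *Id3* and *Id4* were dim on arrays labelled KO, which limits this ranking. The log2 signal of *Id1* was 11.88, 11.70 and 11.96 on arrays labelled KO, against 13.70, 14.24 and 13.58 on arrays labelled WT. The groups were well apart, with means of 11.84 ± 0.14 in KO and 13.84 ± 0.36 in WT (SD, n = 3 each). The difference was -1.99 (standard error 0.20, 95% interval -2.46 to -1.53, adjusted p = 0.0252 from limma), which is a signal ratio of KO over WT of 0.251. The difference lay at percentile 0.15 of those of all genes, and at percentile 0.5 among the 4969 genes not dim in at least 1 group. It was -1.92 without the array labelled KO replicate 2 and ran from -1.66 to -1.86 under 3 other scalings.

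*Id3* encodes the Id protein best known for restraining E proteins in developing lymphocytes. Its signal was 9.90, 9.69 and 9.94 on arrays labelled KO, against 11.38, 11.62 and 11.19 on arrays labelled WT, with no overlap. The difference was -1.56 (standard error 0.16, 95% interval -1.92 to -1.19, adjusted p = 0.0253 from limma). All 3 arrays labelled KO were dim, so the measured means, 9.84 in KO and 11.40 in WT, bound the change only from 1 side. Set against the background level, *Id3* was at least 2.26-fold lower. This bound was taken with the shift to a common median only, and the difference of *Id3* was smaller under other scalings.

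The other Id genes behaved differently. *Id2*, an Id gene known from dendritic and innate lymphoid cells, had bright signals of 14.66, 14.64 and 14.48 on arrays labelled KO, against 14.86, 14.70 and 14.78 on arrays labelled WT. Its difference was -0.18 (95% interval -0.46 to 0.10, adjusted p = 0.415 from limma), and it turned to 0.03 after quantile normalization and to 0.16 when arrays were scaled on bright genes. A change as large as that of *Id1* lies outside this interval. *Id4* was at 9.88, 9.22 and 9.84 on arrays labelled KO, against 10.05, 10.40 and 10.22 on arrays labelled WT, close to or below background on all 6. It differed by -0.58 (95% interval -1.07 to -0.09, adjusted p = 0.158), and by -0.37 without the array labelled KO replicate 2.

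The contrast between Id genes was also measured on its own. The log2 difference between a pair of genes on 1 array cancels a shift of that array that is equal for all genes. A shift that varies with signal level is not cancelled. The difference of *Id1* minus that of *Id2*, both bright on all 6 arrays, was -1.81 (standard error 0.27), and the groups did not overlap. With 3 arrays a group no pair could pass an exact test at 0.05. *Id3* and *Id4* were dim on all 3 arrays labelled KO, and *Id4* averaged 10.23 on arrays labelled WT, close to the background level, so the sizes of their changes are not set against those of other Id genes.

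**Figure D2:**
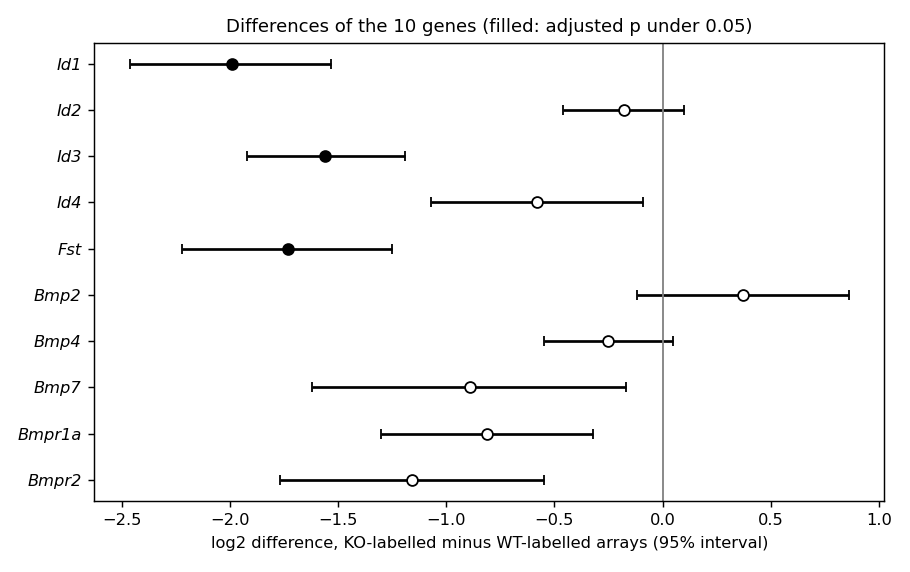
Log2 difference of each gene, arrays labelled KO minus arrays labelled WT, with its 95% interval from limma. Filled points (*Id1*, *Id3* and *Fst*) pass an adjusted p of 0.05, and the intervals of *Id2*, *Bmp2* and *Bmp4* include 0.

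RefSeq promoter windows on GRCm38.p6, running from 250 bases before to 50 bases after the start site, were matched for 6 of the 10 genes (*Id2*, *Id3*, *Id4*, *Bmp4*, *Bmpr1a* and *Bmpr2*). *Id3*, which passed the test, and *Id2*, which did not, are shown for that contrast. Capitals mark GGCGCC, the core that SMAD1 and SMAD5 can bind, and the SMAD box GTCT, which reads AGAC on the other strand. Both strands were searched, the first motif is its own reverse complement, and the marked motifs do not overlap here. The *Id3* window lies at chr4:136143572-136143871 on the plus strand and the *Id2* window at chr12:25096043-25096342 on the minus strand.
Id3 promoter: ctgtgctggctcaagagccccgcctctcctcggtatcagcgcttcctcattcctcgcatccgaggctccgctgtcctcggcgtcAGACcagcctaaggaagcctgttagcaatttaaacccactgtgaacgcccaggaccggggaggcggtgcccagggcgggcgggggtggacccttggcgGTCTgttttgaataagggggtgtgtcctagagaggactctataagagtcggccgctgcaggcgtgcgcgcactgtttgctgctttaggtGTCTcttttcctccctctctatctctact
Id2 promoter: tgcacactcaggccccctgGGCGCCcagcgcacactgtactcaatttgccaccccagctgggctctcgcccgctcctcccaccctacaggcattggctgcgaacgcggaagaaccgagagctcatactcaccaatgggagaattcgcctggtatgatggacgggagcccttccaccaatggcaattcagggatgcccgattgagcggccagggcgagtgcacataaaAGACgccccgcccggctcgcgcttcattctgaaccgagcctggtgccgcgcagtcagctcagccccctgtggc
The *Id3* window held no GGCGCC and 3 copies of the SMAD box, which begin 166 and 68 bases before and 21 bases after the start. The *Id2* window held 1 GGCGCC, 231 bases before the start, and 1 SMAD box. GGCGCC was found in 11.9% of all 32851 promoter windows, and also in those of *Id4*, *Bmpr1a* and *Bmpr2*, while GTCT was found in 88.0% and so marks no gene out. The joined element, GGCGCC followed after 5 bases by the SMAD box, was found in 24 of all windows (0.0731%) and in none of the 6. The STAT motif TTCNNNGAA, present in 8.30% of windows, was also in none of the 6. A match is a description of the letters, and its absence says only that they are not in this window.

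*Fst* was lower on arrays labelled KO, to a level that is not well measured. Its signal was 8.69, 8.41 and 9.12 on arrays labelled KO, against 10.35, 10.70 and 10.39 on arrays labelled WT. The arrays labelled KO were all dim and the arrays labelled WT were all just above background, so the groups were apart. The difference was -1.73 (standard error 0.21, 95% interval -2.22 to -1.25, adjusted p = 0.0266 from limma). Against the background level, with the shift to a common median only, *Fst* was at least 1.19-fold lower. Without the array labelled KO replicate 2 the difference was -1.57.

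The calls of *Id1*, *Id3* and *Fst* changed with the arrays used, while their sizes moved little with any 1 array left out. Without any 1 of KO replicates 1 and 3 and WT replicates 1, 2 and 3, the adjusted p of *Id1* and of *Id3* was 0.0615 to 0.114 and that of *Fst* 0.0615 to 0.12, and 0 of the members passed. Without KO replicate 2 the 3 genes passed with adjusted p of 0.0039 to 0.00486. With all 6 arrays the methods' t-test and a fit with the replicate number as a block called 0 members (6 of 10 at an unadjusted p under 0.05 in each, where 19.3% of all genes in the first fit and 17.3% in the block fit had one), while the other fits tried kept all 3 calls. Weighting arrays by their quality called 5 members lower and *Bmp2* higher, where 9.05% of all genes were lower and 6.01% higher. Removing genes dim in both groups called 5 of the 8 members left lower, where 11.3% of the genes left were lower and 3.26% higher. Scaling on bright genes called the 3 lower and *Bmp2* higher, where 1.13% of all genes were lower and 3.18% higher. Leaving arrays out, the difference of *Id1* ran from -2.12 to -1.79, that of *Id3* from -1.66 to -1.44 and that of *Fst* from -1.92 to -1.57. Under 3 other scalings the sizes were smaller, from -1.42 to -1.21 for *Id3* and from -1.60 to -1.40 for *Fst*.

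**Figure D3:**
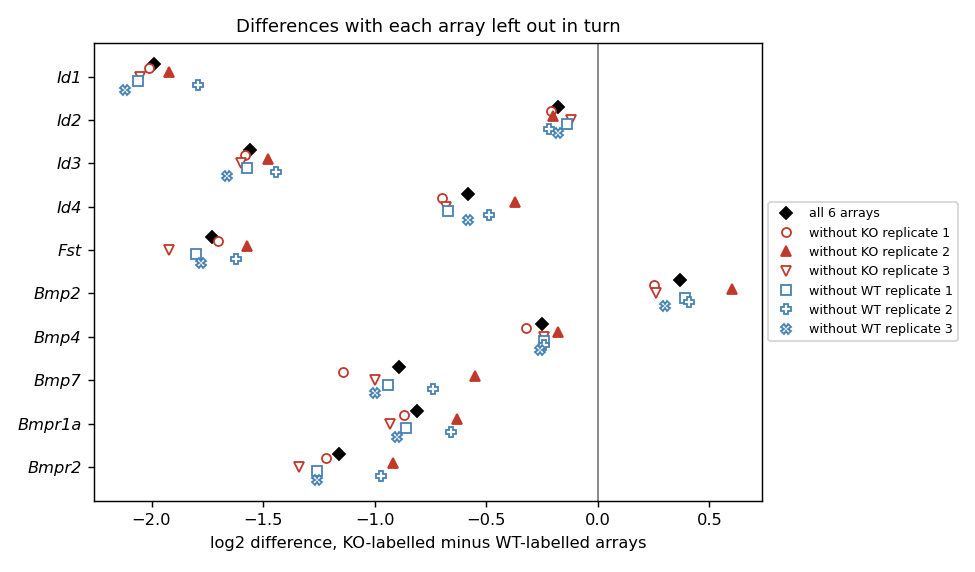
Log2 difference (KO minus WT as labelled) of the 10 genes with all 6 arrays (black diamonds) and with each array left out in turn. Leaving out KO replicate 2 (filled red triangles) brings *Bmp7*, *Bmpr1a*, *Bmpr2* and *Id4* nearer to 0 and raises *Bmp2* to 0.60, while *Id1*, *Id3* and *Fst* stay below -1.4 in every fit.

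Of the receptor genes, *Bmpr2* encodes the type II receptor that is selective for BMPs. It had signals of 11.72, 11.12 and 11.96 on arrays labelled KO, against 12.58, 13.16 and 12.58 on arrays labelled WT, without overlap. The difference was -1.16 (standard error 0.26, 95% interval -1.77 to -0.55, adjusted p = 0.0699 from limma), which did not pass. Without the array labelled KO replicate 2 it was smaller, -0.92, but passed at an adjusted p of 0.0336, where 6.05% of all genes were called lower. *Bmpr1a*, for the type I receptor also called ALK3, was at 12.06, 11.58 and 12.18 on arrays labelled KO, against 12.64, 13.04 and 12.56 on arrays labelled WT. It differed by -0.81 (standard error 0.21, 95% interval -1.30 to -0.32, adjusted p = 0.0877), and by -0.47 when arrays were scaled on bright genes.

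Of the 3 ligand genes only *Bmp7* was bright. Its signals were 11.40, 10.24 and 11.12 on arrays labelled KO, against 11.72, 12.12 and 11.60 on arrays labelled WT, and the KO value of 10.24 belongs to replicate 2. The difference was -0.89 (95% interval -1.62 to -0.17, adjusted p = 0.149 from limma), which fell in size to -0.55 without that array. *Bmp4* was dim on all 6 arrays, at 6.98, 6.68 and 6.82 on arrays labelled KO, against 7.10, 7.09 and 7.05 on arrays labelled WT. Its difference of -0.25 (adjusted p = 0.276) turned to 0.09 when arrays were scaled on bright genes. *Bmp2* was also dim on all 6, at 7.66, 6.97 and 7.65 on arrays labelled KO, against 7.10, 7.14 and 6.93 on arrays labelled WT. Replicate 2 was the only array labelled KO within the WT range. The difference was 0.37 (adjusted p = 0.332), and without replicate 2 it was 0.60 and passed (adjusted p = 0.0185), where 5.15% of all genes were called higher.

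A wider list of the pathway held 59 measured genes beside the 10, of which 3 were lower, none was higher and 56 did not pass (limma, adjusted p under 0.05), where 1.18% of all genes were lower. The median difference of the list was -0.19. Without the array labelled KO replicate 2, 10 were lower and 3 higher, where 6.05% of all genes were lower and 5.15% higher, and without any 1 of the other arrays 0 passed. Target genes gave 2 of the 3 calls. *Hey1*, a transcriptional repressor gene induced by Notch and BMP signals, was at 10.85, 9.84 and 10.51 on arrays labelled KO, against 12.14, 13.22 and 12.20 on arrays labelled WT. Its difference of -2.12 (standard error 0.36) had an adjusted p of 0.0444. *Hes1*, a related repressor gene better known as a Notch target, was at 8.85, 8.48 and 8.84 on arrays labelled KO, against 9.82, 10.06 and 9.74 on arrays labelled WT, all dim, and differed by -1.15 (adjusted p = 0.0326). The other 5 measured targets, among them *Msx1*, *Msx2* and *Atoh8*, did not pass, with differences from -0.28 to 0.26.

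Of the 3 E protein genes, whose products Id proteins bind, *Tcf4* was lower. It was at 10.72, 10.28 and 10.62 on arrays labelled KO, against 11.52, 11.90 and 11.46 on arrays labelled WT. Its difference of -1.08 (standard error 0.18) had an adjusted p of 0.0424 in limma. This call was lost when arrays were scaled on bright genes, where the difference was smaller and none of the 3 passed. *Tcf12* differed by -0.83 (adjusted p = 0.0757) and *Tcf3* by -0.68 (adjusted p = 0.142). Without the array labelled KO replicate 2 *Tcf12* differed by -0.65 and passed (adjusted p = 0.0284), where 6.05% of all genes were called lower. All 3 differences stayed negative under the other scalings.

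None of the 10 genes for SMADs and their ligases and repressors passed (limma), although 9 had an unadjusted p under 0.05 and all 10 differences were negative, from -1.13 to -0.32. Over all genes 23.7% had such a p and 56.5% of differences were negative. Among genes not dim in at least 1 group 39.3% had such a p when fitted alone and 80.6% were negative. After quantile normalization or scaling on bright genes 9 of the 10 were negative and 1 passed. *Smad5*, for a SMAD that BMP receptors activate, was at 9.56, 8.91 and 9.69 on arrays labelled KO, against 10.40, 10.82 and 10.36 on arrays labelled WT, a difference of -1.13 (adjusted p = 0.0631), and passed without replicate 2 (-0.90, adjusted p = 0.0185). *Smad6*, for an inhibitory SMAD that BMP signals induce, differed by -0.48 (adjusted p = 0.0994) and was dim.

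None of the 9 other receptor and co-receptor genes, the 11 other ligand genes, the 15 antagonist genes and the 4 genes of activins and their receptor passed (limma). An unadjusted p under 0.05 was found for 4 of the receptor genes (all lower) and 1 of the ligand genes (higher). It was also found for 4 of the antagonist genes (3 lower and 1 higher) and 3 of the activin genes (all lower). Over all genes 23.7% had such a p. Most were dim. The co-receptor gene *Rgma* differed by -1.33 (adjusted p = 0.0555), the type II receptor gene *Acvr2a* by -1.07 (adjusted p = 0.091) and *Inha*, for the inhibin α-subunit, by -1.26 (adjusted p = 0.054). Without the array labelled KO replicate 2 they differed by -1.24, -0.75 and -1.03. All of these passed (adjusted p = 0.0369, 0.021 and 0.0172 from limma), where 6.05% of all genes were called lower. *Bmp3*, for a ligand that opposes other BMPs, went the other way, at 9.30, 8.52 and 9.69 on arrays labelled KO, against 8.06, 7.75 and 7.84 on arrays labelled WT. It differed by 1.29 (adjusted p = 0.0699), and by 1.62 without replicate 2 (adjusted p = 0.00375). Among antagonists *Twsg1* differed by -0.77 (adjusted p = 0.124), *Grem1* by 0.53 (adjusted p = 0.339) and *Nog*, which was dim, by 0.12. Without replicate 2 *Grem1* differed by 0.90 and passed (adjusted p = 0.00922 from limma), where 5.15% of all genes were called higher.

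**Figure D4:**
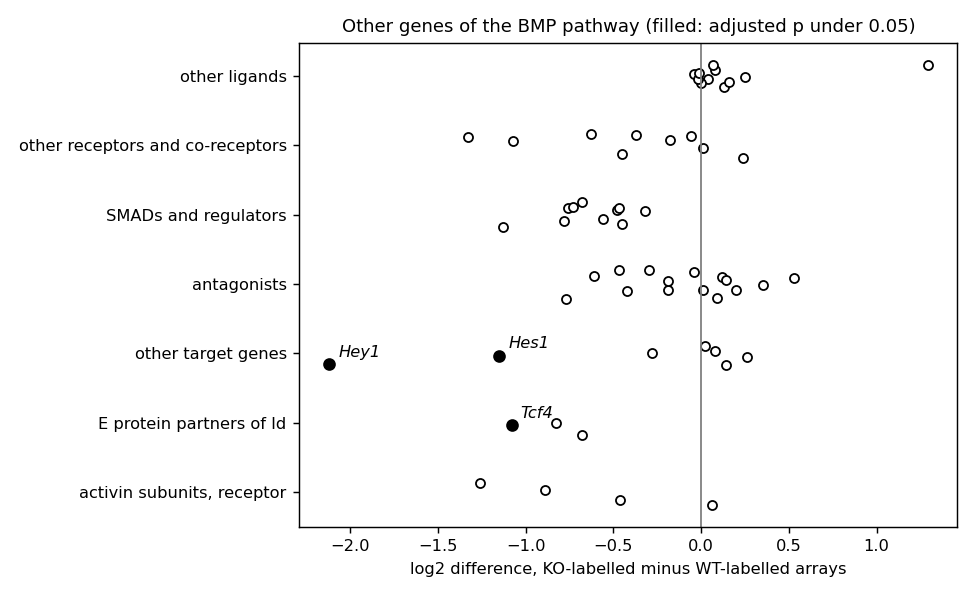
Log2 difference (KO minus WT as labelled) of 59 other genes of the pathway, 1 point per gene, in rows by role (vertical spread within a row has no meaning). Filled points are the 3 genes that pass an adjusted p of 0.05, *Hey1* at -2.12, *Hes1* at -1.15 and *Tcf4* at -1.08, and the SMAD row lies wholly below 0 (9 of its 10 genes after quantile normalization or scaling on bright genes).

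Genes with a profile like that of *Id1* were sought among 3162 named genes above background outside the 10 members, by the root mean square difference over the 6 arrays after each gene was centred on its own mean. The nearest 5 were *Nrbp2* (0.09 log2 units), *Il6st* (0.11), *Osmr* (0.15), *Lox* (0.16) and *Zfp36l1* (0.16). *Il6st* encodes gp130 and *Osmr* the oncostatin M receptor that pairs with it, and both signal through STAT3. *Il6st* was at 14.14, 13.98 and 14.17 on arrays labelled KO, against 15.69, 16.44 and 15.64 on arrays labelled WT, a difference of -1.82, and *Osmr* differed by -2.16, both opposite in direction to the study's account. Among the members *Fst* (0.21) and *Id3* (0.24) lay nearest to *Id1*, both with dim values on arrays labelled KO, and *Bmp2* (1.20) farthest. Of the 3162 genes outside the members, 16 lay nearer to *Id1* than *Fst* did and 21 nearer than *Id3* did. This ranking is a description of 6 arrays and says nothing of shared function.

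Other genes moved with the same labels. Immediate early genes are those that cells switch on within minutes of stimulation. All 9 measured ones were lower on arrays labelled KO (limma), where 1.18% of all genes were lower. Their mean signal was 15.56 to 15.58 on arrays labelled KO, against 16.50 to 16.61 on arrays labelled WT, and their differences ran from -1.37 to -0.71, with *Fos* at -1.10 and *Jun* at -0.71. When arrays were scaled on bright genes all 9 differences stayed negative and 1 passed, where 1.13% of all genes were lower. Of 7 markers of cortical TECs none passed, although all 7 differences were negative and 5 had an unadjusted p under 0.05. Over all genes 56.5% of differences were negative and 23.7% had such a p. Among genes not dim in at least 1 group, fitted alone, these shares were 80.6% and 39.3%. The 7 markers averaged 11.27 to 12.05 on arrays labelled KO, against 12.29 to 13.11 on arrays labelled WT. Of 5 markers of medullary TECs *Aire* (1.76) and *Cd80* (1.30) were higher and *Cd40* differed by 0.92 (adjusted p = 0.0612), again opposite in direction to the study's account. Over all genes 0.517% were higher. Without KO replicate 2 all 5 markers passed, where 5.15% of all genes were higher. The mean of the 5 markers was 12.61 to 13.18 on arrays labelled KO, against 11.72 to 12.20 on arrays labelled WT. The part of immediate early genes and of the cortical and medullary markers in the results for Id and BMP genes was not tested.

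The epithelial identity of the sort held on all 6 arrays. The 7 epithelial markers, *Epcam*, keratins and *Foxn1* among them, averaged 15.67 to 16.06 on arrays labelled KO, against 16.30 to 16.63 on arrays labelled WT. None passed, although all 7 differences were negative and 5 had an unadjusted p under 0.05. Such a p was found in 23.7% of all genes, and in 39.3% of genes not dim in at least 1 group, fitted alone. The endothelium and fibroblasts are known to express Id and BMP genes too. All 8 endothelial markers were dim, averaging 6.32 to 6.47 on arrays labelled KO, against 6.39 to 6.44 on arrays labelled WT, and none passed at either an adjusted or an unadjusted p under 0.05. Of 7 fibroblast markers only *Dcn* was bright, *Fbln1* was lower at -1.86 and 6 did not pass, and the list averaged 7.81 to 8.24 on arrays labelled KO, against 8.07 to 8.51 on arrays labelled WT. Macrophages and dendritic cells had 3 of 10 markers higher (*Lyz2*, *Mrc1* and *C1qb*), where 0.517% of all genes were higher and 1.18% lower. The list averaged 7.62 to 7.72 on arrays labelled KO, against 7.03 to 7.19 on arrays labelled WT. Its only bright marker was *Lyz2*, so the other calls rest on signals under the background level. *Cd68* alone had a negative difference, -0.30 (adjusted p = 0.444 from limma). The 10 thymocyte markers averaged 7.80 to 8.89 on arrays labelled KO, against 7.94 to 8.43 on arrays labelled WT, and the 4 B cell markers, all dim, 6.50 to 6.62 on arrays labelled KO, against 6.30 to 6.47 on arrays labelled WT, with none called in either list (1 of each at an unadjusted p under 0.05). The part of these cells in the results was not tested.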

How the data were processed

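RNA of sorted TECs was hybridised to 6 mouse arrays. Per the study's methods the authors scaled signals with MAS5, took log2 and normalized per chip and per gene. The deposited log2 values are not centred per gene and array medians differ, so which of these steps they hold is not known. The genome build is not given in the sources used here. The arrays hold no read depth, and their number limits the precision.

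A platform annotation of 2017 gave 1 gene symbol for 30638 of 65956 transcript clusters, several for 2176 and none for 33142. Only clusters with 1 symbol were used, with the highest mean for a gene with several, which gave 30176 genes. Each array was shifted to the mean of the array medians over genes. Genes were fitted with limma 3.58.1 (lmFit and eBayes) in R 4.3.3, with Benjamini-Hochberg adjustment over all genes and a threshold of 0.05. Python 3.11.15, numpy 2.4.6, scipy 1.17.1 and matplotlib 3.10.9 were used for the rest. The fit was tested on simulated data.

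The members, the lists of pathway and marker genes and the tests were chosen with earlier results of these data known. Named were all members, pathway genes that passed and up to 3 with the smallest p in each pathway list, up to 3 markers with the highest mean in each marker list, *Socs3* and the 5 genes nearest to *Id1*. *Epcam*, *Foxn1*, *Cd40*, *C1qb*, *Grem1*, *Nog*, *Msx1* and *Msx2* lie outside that rule and were named after their values were seen. Listed genes without a value were not analysed here.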

Additional observations from a re-analysis of the deposited data

How the results depend on the processing

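Of 148 comparisons of a member's difference with an alternative, 115 kept direction and side of the threshold, 9 newly passed, 21 no longer passed and 3 reversed. The reversals were *Id2* at 0.03 after quantile normalization and at 0.16 with arrays scaled on bright genes, and *Bmp4* at 0.09 with that scaling, which was chosen after seeing the data.

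Of the 10 members 3 passed, against 6 with array weights and 5 of the 8 left with dim genes removed. With an ordinary t-test 0 passed (6 at an unadjusted p under 0.05). With 1 array left out the count was 0 to 5, with 5 without KO replicate 2 and 0 without any other array. Of the 59 pathway genes 3 passed, against 15 with array weights, 5 of the 12 left with dim genes removed and 0 with an ordinary t-test (21 unadjusted). The count was 5 with no shift, 12 after quantile normalization, 5 with scaling on bright genes and 0 to 13 with 1 array left out. Over all genes 512 passed (30.5% of them higher), against 4543 with array weights and 4 with an ordinary t-test (5816 unadjusted). The count was 2198 after quantile normalization and 1300 with scaling on bright genes (73.8% higher). With no shift 722 passed (50.8% higher), and 0 to 3381 with 1 array left out (3381 without KO replicate 2). The *Socs3* difference of 0.32 passed with array weights (0.46) and quantile normalization (0.54).

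With the replicate number as a block (limma), 0 members (6 unadjusted), 0 pathway genes (21 unadjusted) and 29 genes in all (5232 unadjusted) passed. The labels do not say that a number marks a shared animal or day. The deviations of same-numbered samples correlated at 0.073, -0.131 and -0.18, and those of differently numbered samples at -0.263 to 0.261. With 3 arrays a group these values cannot tell whether samples with the same number are paired. The median difference of all genes was -0.05, 0.08 with no shift and 0.28 with scaling on bright genes. Each member has 1 probe set, so no other probe set could be tried, and a pseudocount was not run because the values are log2. Precision is limited by 3 arrays a group and, for *Id3* and *Fst* on arrays labelled KO and for *Bmp2* and *Bmp4* on all arrays, by signals below background.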
